A study of Mus musculus with 12 samples.

Results

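The genes of bile acid synthesis and transport form a set of 10 genes that were described here across the livers of a mouse study of carbon tetrachloride (CCl4) fibrosis. The set was chosen by gene symbol, with earlier results of these data known. It holds Cyp7a1, Cyp7b1, Cyp8b1, Cyp27a1, Baat, Abcb11, Slc10a1, Slco1a1, Slco1b2 and Nr0b2. The values of all transcripts with the same symbol were summed in each liver, which gave 10 of 24296 genes with a symbol. All 10 passed the filter on low values, a mean of at least 0.5 over the livers, which 13158 genes passed.

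Total RNA from the livers of 12 mice, 3 in each of 4 groups, was sequenced on an Illumina NovaSeq, and expression is given as FPKM, the number of fragments divided by transcript length and library size. The mice were male C57/BL6N. The control group carries the label WT, which names neither CCl4 nor a vehicle. The model group received CCl4 in olive oil by intraperitoneal injection at 5 mL/kg, with 2 injections per week over 8 weeks. The silibinin group and the phloridzin group, which is the high-dose group of the study, received the same CCl4 injections and, from week 5, the drug, so that no group received a drug without CCl4. The livers were taken at the end of week 8, the labels give no age, and bile acids are not in the deposited table.

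Library sizes read from the values were 105.2, 108.4 and 109.6 M fragments in the control group, 83.7, 101.5 and 100.1 M in the model group, 106.7, 110.9 and 110.1 M in the silibinin group, and 102.1, 104.7 and 98.5 M in the phloridzin group. Phloridzin replicate 1 stood apart from the other livers. Its score on the third principal component was 36.6, against -25.3 to 13.7 in the other 11 livers, and its median correlation with its own group was 0.920, against 0.934 to 0.952 for the others, across genes, which are not independent replicates. DE results of the 10 genes and of the pathway lists in the phloridzin group are therefore also given without this liver. No batch is given in the labels.

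Bile acids are made from cholesterol in hepatocytes by a classical pathway that Cyp7a1 opens and by an alternative pathway that runs through Cyp27a1 and Cyp7b1, and Cyp8b1 adds the hydroxyl group that makes cholic acid. Baat joins bile acids to taurine or glycine, Abcb11 exports them into the canaliculus, and Slc10a1, Slco1a1 and Slco1b2 take bile acids and other organic anions up from the blood. Nr0b2 (SHP) encodes a nuclear repressor in the feedback of bile acids on their own synthesis.

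In the control livers the order of mean levels in FPKM was Slco1b2, Cyp8b1, Baat, Cyp27a1, Cyp7b1, Slc10a1, Abcb11, Slco1a1, Cyp7a1 and Nr0b2. Slco1b2 was first and Nr0b2 last in the order of all 4 groups. Neighbours such as Cyp8b1 and Baat in the control group (264 ± 69.2 and 217 ± 60.7 FPKM, mean ± SD, n = 3) did not differ beyond their spread. In the model livers Cyp8b1 was the sixth and Cyp7b1 the seventh in the order, and in the phloridzin livers Cyp7a1 was the sixth. The summed level of the 10 genes was 1655, 1719.8 and 1350.0 FPKM in the control livers, 854, 756 and 906 FPKM in the model livers, 1109, 1213 and 1278 FPKM in the silibinin livers, and 1272, 1423 and 1081 FPKM in the phloridzin livers. Each model liver had a lower sum than any liver of the other groups.

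**Figure D1:**
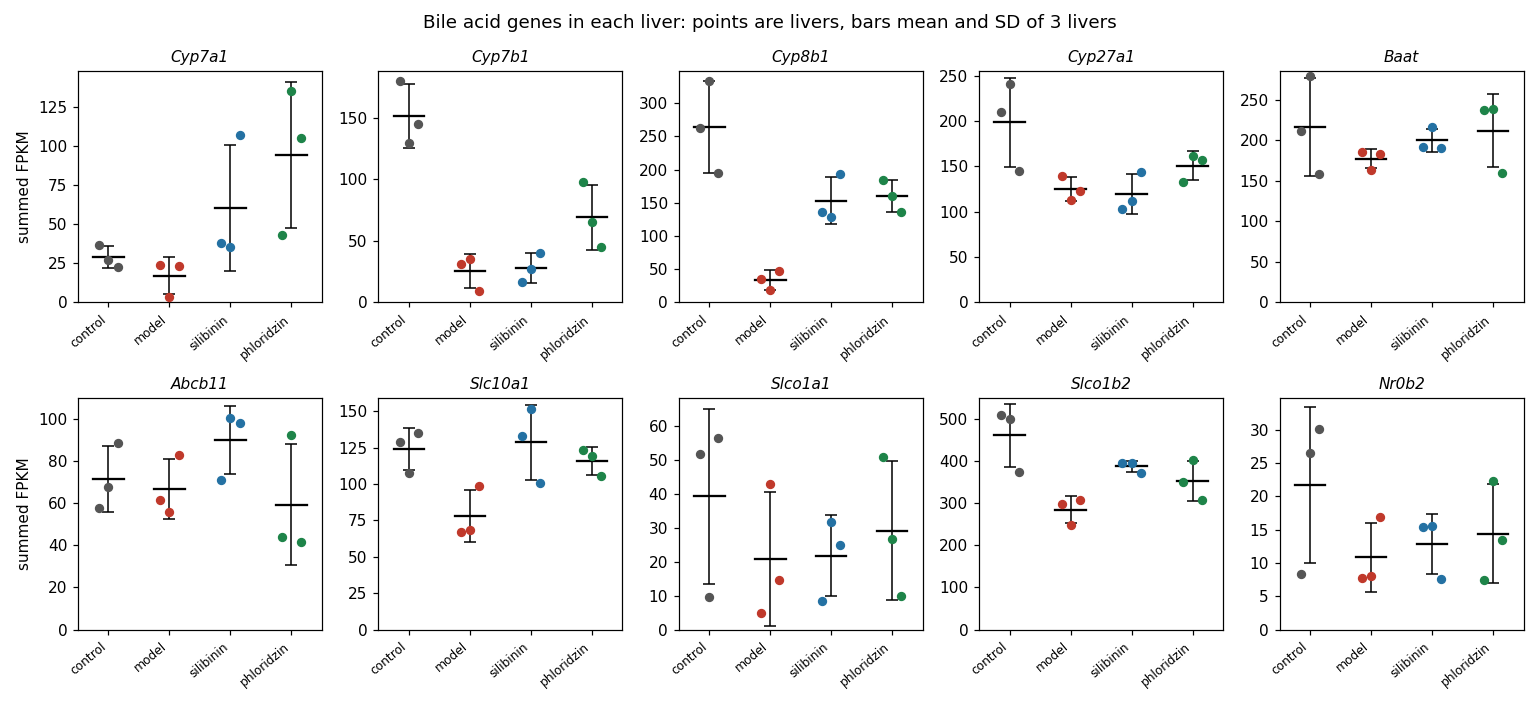
Summed FPKM of each of the 10 genes (vertical axis, linear, from 0) in each liver (points) of the control, model, silibinin and phloridzin groups, with group means and SD (black lines and bars, n = 3). Cyp8b1 lay between 18.1 and 47.3 FPKM in the model livers and at 128 FPKM or more in all other livers, whereas Cyp7b1 was low in both the model and the silibinin livers.

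The plot of expression by liver shows that the 4 synthesis enzymes did not share a pattern. Cyp8b1 and Cyp7b1 were both low in the model group, and Cyp8b1 was higher again in both drug groups. Cyp7a1 had its highest mean in the phloridzin group, although the phloridzin and silibinin livers overlapped. Differences were tested on log2(FPKM + 1) by limma, with the variance allowed to follow the level, in a fit of all 12 livers, with p-values adjusted by the Benjamini-Hochberg method over the 13158 genes. A differentially expressed (DE) gene had an adjusted p under 0.05 and differed by more than 1 on the log2 scale, in either direction. The median log2 fold change over all genes tested was 0.34 in model against control, -0.15 in silibinin against model and -0.11 in phloridzin against model. Changes relative to that median are therefore given beside some of the fold changes and beside the medians of the other gene lists.

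In model against control, 2 of the 10 genes were downregulated, Cyp7b1 and Cyp8b1, where 1.08% of all genes tested were downregulated. None was upregulated by limma (9.42% of all genes), and 0 were higher at an unadjusted p under 0.05 (40.2% of all genes). At an adjusted p under 0.05 without the cutoff on fold change, 5 of 10 genes were lower (3.80% of all genes), and the same 5 had model and control livers that did not overlap with the model livers lower (6.92% of all genes). These were Cyp7b1, Cyp8b1, Cyp27a1, Slc10a1 and Slco1b2. The median log2 fold change of the 10 genes was -0.76, and all 10 had values below 0, as had 24.0% of all genes tested. Scaling of the libraries by median ratios changes the balance of calls over all genes. Without it 1240 genes were upregulated and 142 downregulated (89.7% higher), and with it 531 and 454 (53.9% higher). After that scaling 5 of 10 genes were downregulated, against 3.45% of all genes.

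Cyp8b1, the sterol 12-alpha-hydroxylase, is a gene on the minus strand at chr9:121914356-121916305 of mouse build GRCm38. Its level was 263, 333 and 195 FPKM in the control livers, 35.1, 18.1 and 47.3 FPKM in the model livers, 137, 128 and 193 FPKM in the silibinin livers, and 185, 160.4 and 136 FPKM in the phloridzin livers. The highest model liver was below the lowest liver of each other group, and the ranges of both drug groups overlapped with each other and lay below that of the control group. Silibinin replicate 3 and control replicate 3 were nearly equal. Cyp8b1 fell in the model group to 12.7% of the control mean, with a log2 fold change of -3.01 (SE 0.33, limma adjusted p = 0.000182), or -3.34 relative to all genes. The call held with each liver left out in turn.

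Cyp7b1, the oxysterol 7-alpha-hydroxylase of the alternative pathway, lies on the minus strand at chr3:18071950-18243338, and its expression in mouse liver is known to be higher in males. Its level was 179.6, 129 and 145 FPKM in the control livers, 31.2, 35.4 and 9.56 FPKM in the model livers, 16.4, 27.4 and 40.1 FPKM in the silibinin livers, and 97.4, 65.2 and 44.8 FPKM in the phloridzin livers. The control livers were above all others, the model and silibinin livers overlapped, and the phloridzin livers lay between the control livers and those of both other groups without overlap. In the model group Cyp7b1 fell to 16.8% of the control mean, with a log2 fold change of -2.71 (SE 0.47, limma adjusted p = 0.00195), or -3.04 relative to all genes, and this call too held with each liver left out.

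Cyp27a1, which opens the alternative pathway in mitochondria, had 209.8, 241 and 144 FPKM in the control livers, 139.6, 113 and 123 FPKM in the model livers, 102, 112 and 144 FPKM in the silibinin livers, and 133, 162 and 157 FPKM in the phloridzin livers. The model livers were all below the control livers, with a gap of a few FPKM between the nearest livers. The log2 fold change of Cyp27a1 in model against control was -0.64 (SE 0.21, limma adjusted p = 0.0348), which is within the cutoff, and -0.97 relative to all genes. After scaling by median ratios it was -1.08 (limma adjusted p = 0.00615) and Cyp27a1 was called. The adjusted p was above 0.05 without control replicate 1 (0.097), control replicate 2 (0.12), model replicate 2 (0.1) or model replicate 3 (0.081), with no filter (0.052), with the compared groups alone (0.064) and with the replicate block (0.061), and over all alternatives it ranged from 0.0061 to 0.12 in limma.

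Cyp7a1, the rate-limiting enzyme of the classical pathway, had 36.7, 26.9 and 22.9 FPKM in the control livers, 24.1, 3.64 and 23.4 FPKM in the model livers, 38.0, 35.7 and 107 FPKM in the silibinin livers, and 43.3, 135 and 105 FPKM in the phloridzin livers. Model replicate 2 was the lowest of the 12 livers, and the other model livers overlapped with the control livers. The difference between the model and control groups did not pass the test, with a log2 fold change of -1.05 (SE 0.67, limma adjusted p = 0.248). Both drug groups were above the model group without overlap, as for 8.91% of all genes with silibinin and 8.21% with phloridzin. The phloridzin livers were above the control livers without overlap, as for 26.8% of all genes and 1 of the 10 members.

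Of the uptake carriers, Slc10a1 (NTCP) had 129, 108 and 135 FPKM in the control livers, 67.4, 68.1 and 98.8 FPKM in the model livers, 133, 152 and 101 FPKM in the silibinin livers, and 123, 119 and 105 FPKM in the phloridzin livers. The model livers were below the livers of each other group, with model replicate 3 close to silibinin replicate 3. Slco1b2 (OATP1B2), the most abundant of the 10 genes, had 508, 498 and 375 FPKM in the control livers, 297, 247 and 307 FPKM in the model livers, 395, 395 and 371 FPKM in the silibinin livers, and 351, 402 and 307 FPKM in the phloridzin livers. Its model livers were again the lowest, although model replicate 3 and phloridzin replicate 3 were nearly equal. The log2 fold change of Slc10a1 in model against control was -0.68 (SE 0.19, limma adjusted p = 0.0215) and -1.01 relative to all genes. For Slco1b2 it was -0.69 (SE 0.17, limma adjusted p = 0.0110) and -1.03 relative to all genes. Both were called after scaling by median ratios, at -1.12 and -1.14. For Slc10a1 the adjusted p in this comparison was above 0.05 without control replicate 1 (0.062), control replicate 3 (0.067), model replicate 1 (0.073) or model replicate 2 (0.075). With the most abundant transcript the log2 fold change was -0.17 (limma adjusted p = 0.83), and over all alternatives the adjusted p ranged from 0.0018 to 0.83 in limma. For Slco1b2 it ranged from 0.0011 to 0.045.

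Slco1a1 (OATP1A1), another carrier with higher expression in males, varied widely within each group. It had 51.9, 9.57 and 56.5 FPKM in the control livers, 4.79, 43.0 and 14.7 FPKM in the model livers, 8.53, 31.9 and 24.9 FPKM in the silibinin livers, and 50.9, 26.7 and 10.02 FPKM in the phloridzin livers. Each group held a liver at 14.7 FPKM or less, and all groups overlapped. The SD of the control group was 65.8% of its mean, and the difference between the model and control groups did not pass the test (limma adjusted p = 0.408), as after scaling by median ratios, where the log2 fold change was -1.42 (SE 0.89, limma adjusted p = 0.27). Slco1a1 has close paralogs, and how fragments were divided among them was not tested.

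Abcb11 (BSEP), the export pump, ranged from 41.3 to 100.1 FPKM over the 12 livers, with overlap between all groups. Its group means were 71.2 ± 15.7 FPKM in the control group, 66.6 ± 14.2 in the model group, 89.8 ± 16.2 in the silibinin group and 59.2 ± 28.6 in the phloridzin group (mean ± SD, n = 3). Baat, which conjugates bile acids, ranged from 158 to 279.6 FPKM, and its model livers, at 164 to 185 FPKM, lay inside the range of the control livers. Nr0b2 ranged from 7.43 to 30.1 FPKM with overlap between all groups, and control replicate 1, at 8.38 FPKM, was close to the lowest model livers. The log2 fold changes of these 3 genes in model against control were between -0.84 and -0.09, and none passed the test. After scaling by median ratios Baat was at -0.70 (limma adjusted p = 0.0245), within the cutoff on fold change. Abcb11, at -0.53 (limma adjusted p = 0.26), and Nr0b2, at -1.26 (limma adjusted p = 0.11), did not pass after that scaling.

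**Figure D2:**
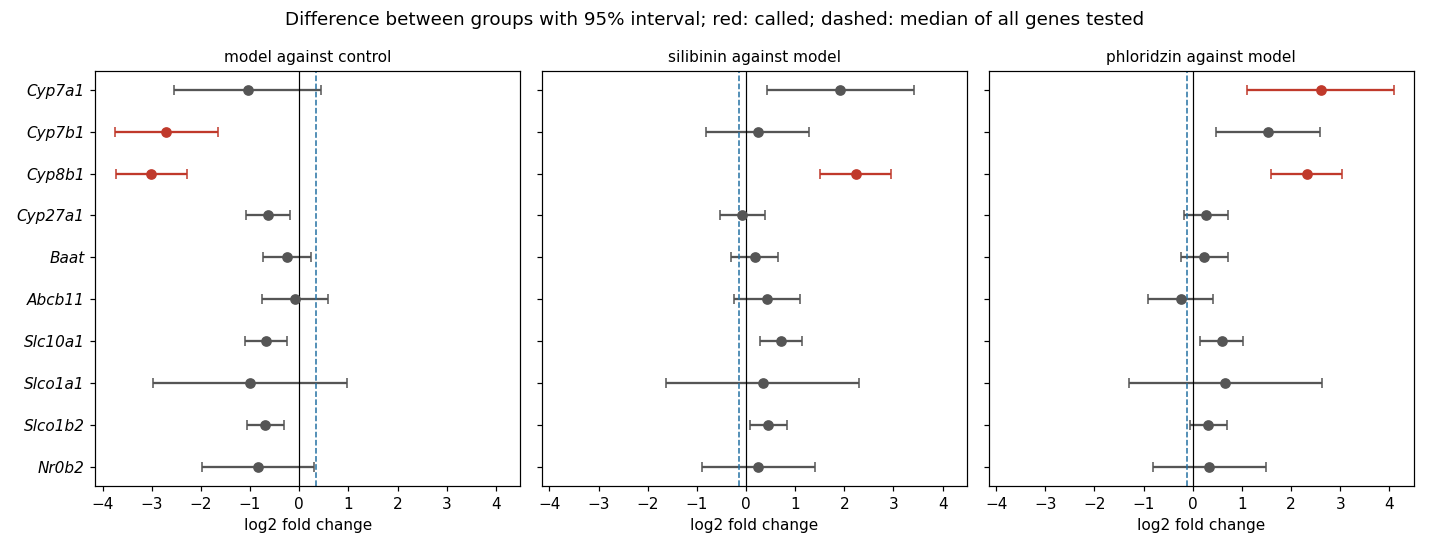
Log2 fold change (horizontal axis) of each of the 10 genes in model against control and in each drug group against the model group, with 95% confidence intervals from limma (bars) and the median of all genes tested (dashed line). Cyp8b1 was at -3.01 in model against control and at 2.23 and 2.32 in the drug groups against the model group, whereas Cyp7b1 was at 0.24 in silibinin against model and 1.53 in phloridzin against model.

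In silibinin against model, 1 of the 10 genes was upregulated, Cyp8b1, where 0.745% of all genes tested were upregulated. Without the cutoff on fold change 2 of 10 passed, Cyp8b1 and Slc10a1 (2.62% of all genes). For 5 of 10 genes, Cyp7a1, Cyp8b1, Baat, Slc10a1 and Slco1b2, all silibinin livers were above all model livers (8.91% of all genes). None was downregulated by limma (3.25% of all genes), and 0 were lower at an unadjusted p under 0.05 (22.5% of all genes). The median log2 fold change of the 10 genes was 0.38, and 9 were above 0, with Cyp27a1 at -0.07 the exception (0.14 after scaling by median ratios), while 65.8% of all genes tested were below 0. Over all genes 98 were upregulated and 428 downregulated (18.6% higher), and 189 and 242 after scaling by median ratios (43.9% higher). Without model replicate 2 they were 47 and 377 (11.1% higher).

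Cyp8b1 rose with silibinin by a log2 fold change of 2.23 (SE 0.33, limma adjusted p = 0.00174), or 2.39 relative to all genes, in 3 of 3 livers against all model livers. The mean reached 58.0% of the control mean. Cyp7a1 had a log2 fold change of 1.92 (SE 0.67, limma adjusted p = 0.0851) and did not pass, with silibinin replicate 3 at 107 FPKM and the other silibinin livers at 38.0 FPKM or less. Cyp7b1 had a log2 fold change of 0.24 (limma adjusted p = 0.788), and silibinin replicate 1, at 16.4 FPKM, was below 2 of the 3 model livers. Slc10a1 was at 0.72 (SE 0.19, limma adjusted p = 0.0337), within the cutoff on fold change. Its adjusted p was above 0.05 without model replicate 1 (0.1), model replicate 2 (0.11), silibinin replicate 1 (0.1) or silibinin replicate 2 (0.11), with the compared groups alone (0.084), with the replicate block (0.066) and with the most abundant transcript (0.13, limma adjusted p = 0.91), and over all alternatives it ranged from 0.0085 to 0.91.

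In phloridzin against model, 2 of the 10 genes were upregulated, Cyp7a1 and Cyp8b1, where 0.600% of all genes tested were upregulated. For 5 of 10 genes, Cyp7a1, Cyp7b1, Cyp8b1, Slc10a1 and Slco1b2, all phloridzin livers were above all model livers (8.21% of all genes). None was downregulated by limma (2.92% of all genes), and 0 were lower at an unadjusted p under 0.05 (20.8% of all genes). The median log2 fold change of the 10 genes was 0.46, and 9 were above 0, with Abcb11 at -0.25 the exception, while 61.1% of all genes tested were below 0. Over all genes 79 were upregulated and 384 downregulated (17.1% higher), and 140 and 244 after scaling by median ratios (36.5% higher). They were 34 and 342 without model replicate 2, 48 and 319 without phloridzin replicate 2, and 116 and 522 without phloridzin replicate 1.

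Cyp8b1 rose with phloridzin by a log2 fold change of 2.32 (SE 0.33, limma adjusted p = 0.00152), or 2.43 relative to all genes, and its mean reached 60.9% of the control mean. Without phloridzin replicate 1 the log2 fold change was 2.21 (limma adjusted p = 0.0047). Cyp7a1 rose by 2.60 (SE 0.67, limma adjusted p = 0.0306), or 2.71 relative to all genes, with a mean 5.54 times that of the model group, and without phloridzin replicate 1 it was at 3.08 (limma adjusted p = 0.019). This call was lost without model replicate 2 (1.80, limma adjusted p = 0.076), without phloridzin replicate 2 (2.28, limma adjusted p = 0.11) and without phloridzin replicate 3 (2.45, limma adjusted p = 0.09). It was also lost with no filter (limma adjusted p = 0.055) and in a fit of the compared groups alone (limma adjusted p = 0.1), and over all alternatives its adjusted p ranged from 0.019 to 0.11. Cyp7b1 had a log2 fold change of 1.53 (SE 0.47, limma adjusted p = 0.0598), which missed the threshold, and 1.70 (limma adjusted p = 0.0456) after scaling by median ratios, which passed it. Without phloridzin replicate 1, which had the highest Cyp7b1 of its group, it was 1.25 (limma adjusted p = 0.13), and over all alternatives the adjusted p ranged from 0.046 to 0.15.

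The drugs were compared with each other directly, in phloridzin against silibinin. None of the 10 genes was DE by limma, where 0.0228% of all genes tested, 3 genes, were DE in either direction. Over all genes this number was between 1 (without silibinin replicate 2) and 6 (without phloridzin replicate 1) with each liver left out. It was 0 with the compared groups alone. At an unadjusted p under 0.05, 1 of the 10 genes was higher with phloridzin, Cyp7b1 (2.53% of all genes), and 1 lower, Abcb11 (1.22% of all genes). Cyp7b1 was higher in 3 of 3 phloridzin livers than in all silibinin livers, as were 5.19% of all genes. Its log2 difference was 1.29 (95% interval 0.24 to 2.34, limma adjusted p = 1), and 1.01 (limma adjusted p = 0.87) without phloridzin replicate 1. Abcb11 had 44.1, 92.1 and 41.3 FPKM in the phloridzin livers and 71.1, 100.1 and 98.1 FPKM in the silibinin livers, which overlapped through phloridzin replicate 2. For Cyp7a1 the log2 difference was 0.69 with an interval from -0.81 to 2.18. For Cyp8b1 it was 0.08, with an interval from -0.64 to 0.80. Silibinin is a flavonolignan and phloridzin a dihydrochalcone glucoside, and they were not given at the same dose.

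Against the control group, which shares its livers with the model comparison, 1 of the 10 genes was downregulated in the silibinin group (0.243% of all genes tested), Cyp7b1, at 18.5% of the control mean with a log2 fold change of -2.47 (SE 0.47, limma adjusted p = 0.0188). This call was lost without control replicate 1 (-2.34, limma adjusted p = 0.069), control replicate 2 (-2.58, limma adjusted p = 0.053), control replicate 3 (-2.49, limma adjusted p = 0.056), silibinin replicate 1 (-2.14, limma adjusted p = 0.077) or silibinin replicate 2 (-2.50, limma adjusted p = 0.073). Its direction was the same in each of these fits, and the adjusted p over all alternatives ranged from 0.01 to 0.077. At an unadjusted p under 0.05, 3 of 10 were lower with silibinin, Cyp7b1, Cyp8b1 and Cyp27a1 (2.31% of all genes), and the same 3 had silibinin livers below all control livers (4.01% of all genes). For Cyp8b1 and Cyp27a1 silibinin replicate 3 (193.4 and 144.0 FPKM) was nearly equal to control replicate 3 (194.7 and 144.3 FPKM). None was upregulated with silibinin against control by limma (1.74% of all genes), and 0 were higher at an unadjusted p under 0.05 (19.2% of all genes). In the phloridzin group, 0 of the 10 genes were downregulated by limma (0.289% of all genes tested) and 1, Cyp7b1, was lower at an unadjusted p under 0.05 (2.14% of all genes), while 2, Cyp7b1 and Cyp8b1, had phloridzin livers below all control livers (2.99% of all genes). Cyp7b1 was at 45.7% of the control mean there, with a log2 fold change of -1.17 (limma adjusted p = 0.158). None was upregulated by limma in that comparison (2.74% of all genes), and 1, Cyp7a1, was higher at an unadjusted p under 0.05 (22.5% of all genes), with a log2 fold change of 1.56 (SE 0.67, limma adjusted p = 0.186).

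**Figure D3:**
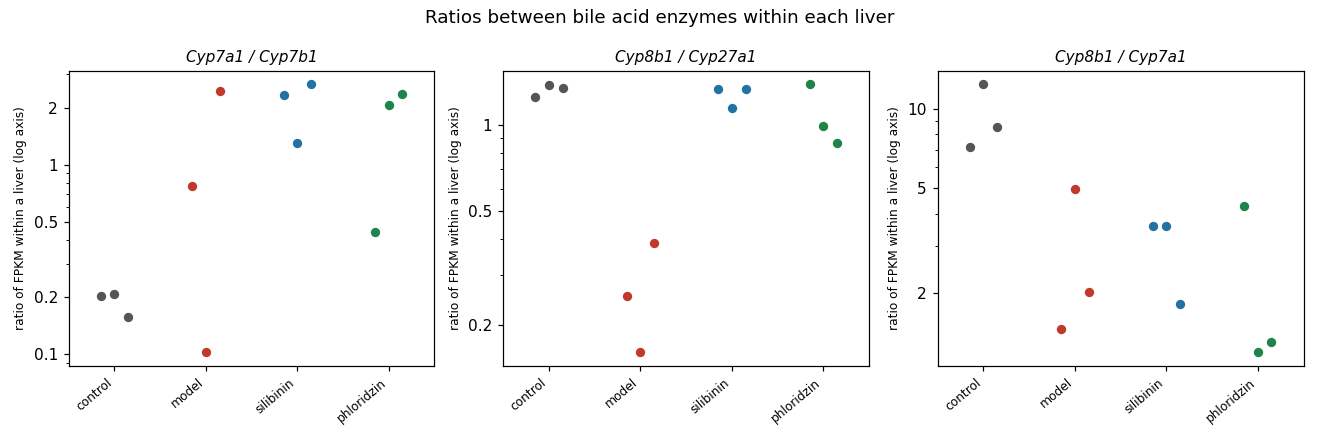
Ratio of the FPKM of paired synthesis enzymes within each liver (points, log axis) in the 4 groups (n = 3). The ratio of Cyp8b1 to Cyp27a1 lay between 0.161 and 0.386 in the model livers and at 0.865 or more in all other livers.

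Ratios of FPKM within a liver do not depend on the scaling of the library, and the 3 pairs were chosen after the values were seen, so they are given as a description without a test. The ratio of Cyp8b1 to Cyp27a1 was 1.25, 1.38 and 1.35 in the control livers, 0.252, 0.161 and 0.386 in the model livers, 1.34, 1.15 and 1.34 in the silibinin livers, and 1.39, 0.991 and 0.865 in the phloridzin livers. The model livers stood below all others in this ratio, and the drug groups overlapped with the control group. The ratio of Cyp7a1 to Cyp7b1 was 0.204, 0.208 and 0.158 in the control livers, 0.772, 0.103 and 2.45 in the model livers, 2.32, 1.303 and 2.66 in the silibinin livers, and 0.445, 2.07 and 2.35 in the phloridzin livers. All livers of both drug groups were above the control livers, and the model livers included the lowest value of the 12, in model replicate 2, and a value inside the range of the silibinin livers, in model replicate 3. The ratio of Cyp8b1 to Cyp7a1 was 7.17, 12.4 and 8.501 in the control livers and 4.97 or less in the other 9 livers.

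Across the 12 livers the members of the set varied together to different degrees. Pearson's r of log2(FPKM + 1) is given as a description, since the livers share their group. Among the 45 pairs the highest r was that of Cyp8b1 and Slco1b2, 0.871, followed by Cyp8b1 and Slc10a1 with 0.766, and the lowest was that of Cyp7b1 and Abcb11, -0.221. Cyp7a1 and Cyp7b1 had an r of 0.103. Among 11610 other genes with a mean of at least 1 FPKM, those most like Cyp8b1 were Slc25a34 (r = 0.963), Creb3l3 and Fbxo21. Those most like Cyp7b1 were C6 (0.897), Mup18 (0.842) and Moxd1 (0.840), and those most like Cyp7a1 were Cth (0.886), Gm16124 (0.871) and Mblac2 (0.867). For Cyp27a1 they were Stx17 (0.909), Cyp4f13 and Rapgef4, for Baat Sar1b (0.899), Lamtor4 and Rnf13, and for Abcb11 Hnf4a (0.859), Smarca5 and Tmem127. For Slc10a1 they were Mmp15 (0.928), C1rl and Ttc38, for Slco1b2 Ugt3a2 (0.960), Spp2 and Pecr, for Slco1a1 Babam1 (0.790), Rab29 and Tmem243, and for Nr0b2 Nr3c1 (0.819), Slc29a1 and Dapk1.

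For Cyp8b1, Slco1b2 and Slc10a1 every model liver was below every liver of the other groups (for Slco1b2 by little in phloridzin replicate 3), as for 2.97% of all genes tested, so the sequences around their start sites are shown. They run from 250 bases before to 50 bases after the start, 5′ to 3′ on the strand of the gene, and come from RefSeq on build GRCm38.p6. Of the 10 genes 7 were matched, with 8 windows, and Cyp7a1, Cyp7b1 and Baat are not in the table. The window of Cyp8b1 is chr9:121916256-121916555 on the minus strand, that of Slco1b2 is chr6:141629268-141629567 on the plus strand, and those of Slc10a1 are chr12:80968030-80968329 and chr12:80968656-80968955 on the minus strand. Capitals mark the motif AGGTCA, or its reverse complement TGACCT, the core bound by many nuclear receptors.
Cyp8b1: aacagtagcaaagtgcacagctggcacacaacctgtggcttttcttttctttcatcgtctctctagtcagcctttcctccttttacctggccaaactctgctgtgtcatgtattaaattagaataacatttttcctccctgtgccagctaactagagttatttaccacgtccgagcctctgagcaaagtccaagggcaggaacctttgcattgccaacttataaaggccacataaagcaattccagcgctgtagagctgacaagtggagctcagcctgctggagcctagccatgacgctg
Slco1b2: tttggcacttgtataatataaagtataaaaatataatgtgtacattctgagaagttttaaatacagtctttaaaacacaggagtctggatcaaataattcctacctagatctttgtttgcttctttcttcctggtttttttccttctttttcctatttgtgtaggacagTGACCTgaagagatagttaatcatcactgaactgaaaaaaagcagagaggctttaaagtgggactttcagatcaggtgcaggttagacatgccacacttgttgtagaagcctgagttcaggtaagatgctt
Slc10a1 first window: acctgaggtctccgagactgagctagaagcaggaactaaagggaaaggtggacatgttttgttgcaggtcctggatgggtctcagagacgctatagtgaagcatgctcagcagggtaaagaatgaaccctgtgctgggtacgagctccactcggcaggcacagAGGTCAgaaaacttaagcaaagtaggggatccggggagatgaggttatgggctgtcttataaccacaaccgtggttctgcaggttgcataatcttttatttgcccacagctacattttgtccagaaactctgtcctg
Slc10a1 second window: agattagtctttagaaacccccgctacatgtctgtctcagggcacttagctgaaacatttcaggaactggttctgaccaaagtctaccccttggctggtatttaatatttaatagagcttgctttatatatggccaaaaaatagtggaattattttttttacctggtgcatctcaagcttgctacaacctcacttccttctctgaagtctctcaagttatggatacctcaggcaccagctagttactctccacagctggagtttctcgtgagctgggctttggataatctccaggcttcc
The motif AGGTCA was searched on both strands and is present in 16.3% of the 32851 promoters of the table. It is contained in the other motifs searched, CAAGGTCA (1.56% of promoters), the inverted repeat AGGTCANTGACCT (0.00913%) and the direct repeat AGGTCANAGGTCA (0.0396%), which had no match in the 8 windows. AGGTCA began 87 bases before the start in the first Slc10a1 window, and TGACCT 81 bases before the start in the Slco1b2 window. Neither was found in the Cyp8b1 window or the second Slc10a1 window. The motif was also present in the windows of Abcb11, 56 bases before the start, and Slco1a1, 24 and 134 bases before the start, and not in those of Cyp27a1 and Nr0b2. A match describes the letters only, and no binding was measured.

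The windows of Slc10a1 belong to different transcripts. The transcript ENSMUST00000095572, from the first window, held 57.2% of the Slc10a1 sum and had 65.8, 27.0 and 114 FPKM in the control livers, 44.4, 43.5 and 73.5 FPKM in the model livers, 92.5, 47.0 and 43.1 FPKM in the silibinin livers, and 60.1, 79.1 and 76.2 FPKM in the phloridzin livers. Its control and model livers overlapped. The transcript ENSMUST00000218162, from the second window, held 26.4% of the sum and ranged from 3.40 to 74.9 FPKM over the 12 livers. With the most abundant transcript in place of the sum, the log2 fold change of Slc10a1 in model against control was -0.17 (limma adjusted p = 0.83).

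**Figure D4:**
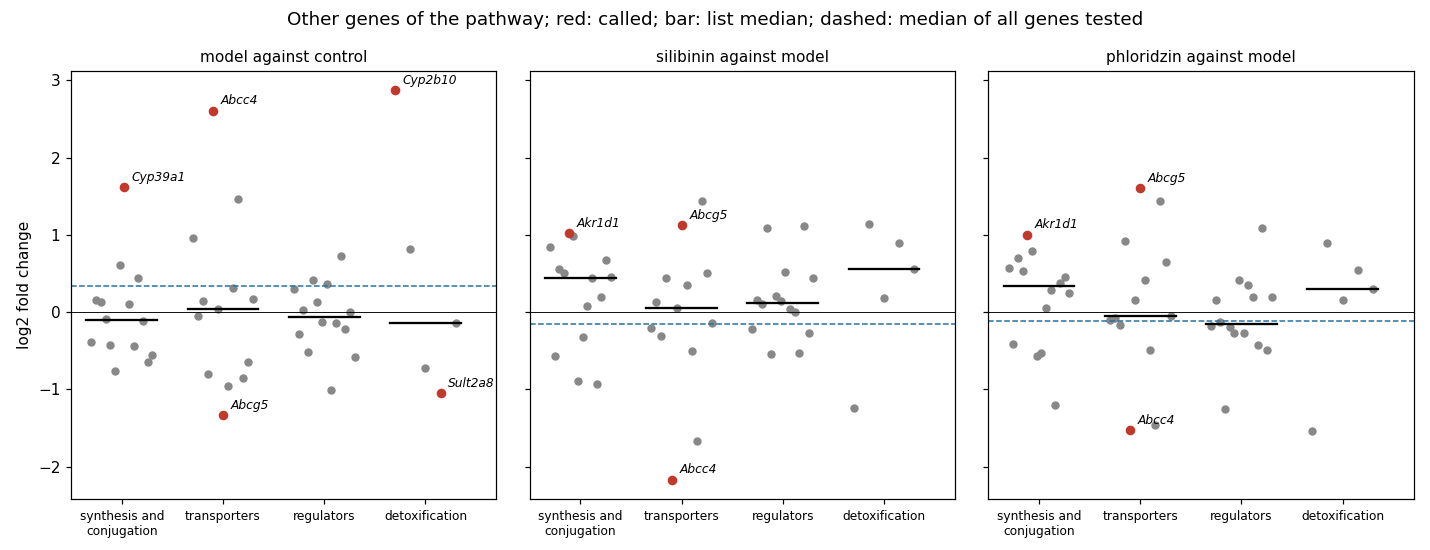
Log2 fold change (vertical axis) of the other genes of the pathway in 4 lists (points, DE genes in red), with the list median (bar) and the median of all genes tested (dashed line), for model against control and each drug group against the model group. Abcc4 was at 2.61 in model against control and at -1.52 in phloridzin against model, while the regulators had no DE gene.

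Other genes of the pathway were read from 4 lists, shown in the plot of the pathway lists. The counts of these and the marker lists stand beside shares of all genes tested, which were 9.42% upregulated and 1.08% downregulated in model against control, 0.745% and 3.25% in silibinin against model, 0.600% and 2.92% in phloridzin against model, 1.74% and 0.243% in silibinin against control, and 2.74% and 0.289% in phloridzin against control. At an unadjusted p under 0.05 the shares higher and lower were 40.2% and 5.59% in model against control, 6.74% and 22.5% in silibinin against model, 6.98% and 20.8% in phloridzin against model, 2.53% and 1.22% in phloridzin against silibinin, 19.2% and 2.31% in silibinin against control, and 22.5% and 2.14% in phloridzin against control. After scaling by median ratios, 531 and 454 of the 13158 genes were up- and downregulated in model against control. They were 189 and 242 in silibinin against model and 140 and 244 in phloridzin against model. Without phloridzin replicate 1 these counts were 1305 and 149, 113 and 446, and 116 and 522, in that order. The shares against control depend on single livers and on the processing. In silibinin against control 229 genes were upregulated, and 108 without control replicate 1, 131 without control replicate 2, 81 without silibinin replicate 1, 80 without silibinin replicate 2 and 357 without phloridzin replicate 1, while 32 were downregulated, and 20 without silibinin replicate 1. In phloridzin against control 360 were upregulated, and 186 without control replicate 1, 209 without control replicate 2, 210 without phloridzin replicate 1 and 589 without phloridzin replicate 3. Among the other enzymes of synthesis and conjugation, 14 of 15 were tested and Scp2 was the most abundant, with 30.7% of the summed level. Ch25h, whose mean over the livers was below the filter, was not tested. It had 1.20, 2.02 and 1.69 FPKM in the model livers and 0.167 FPKM or less in all other livers. In model against control 1 of the 14 was upregulated and 0 downregulated by limma (2 higher and 3 lower at an unadjusted p under 0.05). The list median was -0.10 (-0.44 relative to all genes). Cyp39a1, a 7-alpha-hydroxylase of oxysterols, had 11.5, 10.8 and 6.34 FPKM in the control livers, 29.5, 26.8 and 35.9 FPKM in the model livers, 21.2, 34.2 and 19.4 FPKM in the silibinin livers, and 24.6, 22.3 and 16.7 FPKM in the phloridzin livers. All control livers were below the livers of the other groups. Cyp39a1 rose in the model group by 1.62 (log2, limma adjusted p = 0.00128) and was also higher than control with silibinin (1.29, limma adjusted p = 0.0218) and with phloridzin (1.10, limma adjusted p = 0.0315), the last not called after scaling by median ratios. The call with silibinin was lost without control replicate 2 or 3 or silibinin replicate 1 or 2 (limma adjusted p = 0.016 to 0.088 over the livers left out). That with phloridzin was lost without any 1 of the control livers, phloridzin replicate 1 (0.98, limma adjusted p = 0.098) or phloridzin replicate 2, with an adjusted p from 0.026 to 0.098. With scaling, Amacr and Slc27a2 were downregulated in the model group too.

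In each drug group against the model group, 1 of these 14 enzymes was upregulated and 0 downregulated by limma. At an unadjusted p under 0.05, 6 were higher and 1 lower with silibinin, and 4 higher and 1 lower with phloridzin. The list medians were 0.45 with silibinin (0.60 relative to all genes) and 0.33 with phloridzin (0.44 relative to all genes). The upregulated enzyme was Akr1d1, the 5-beta-reductase that follows both pathways. Akr1d1 had 55.6, 68.0 and 44.4 FPKM in the control livers, 42.7, 34.1 and 47.2 FPKM in the model livers, 76.0, 99.3 and 79.2 FPKM in the silibinin livers, and 75.6, 100.02 and 76.2 FPKM in the phloridzin livers. The livers of both drug groups were above all control and model livers. Akr1d1 rose by 1.02 (log2, limma adjusted p = 0.00755) with silibinin and by 1.00 (limma adjusted p = 0.00863) with phloridzin. Both calls were lost on the cutoff on fold change without model replicate 2, the silibinin call also without silibinin replicate 2 and the phloridzin call without phloridzin replicate 2, and without phloridzin replicate 1 Akr1d1 was at 1.07 (limma adjusted p = 0.012) with phloridzin. Its difference between the drugs did not pass the test (-0.02, limma adjusted p = 1). After scaling by median ratios 3 enzymes were upregulated with silibinin, Akr1d1, Abcd3 and Amacr, where 189 of all 13158 genes were.

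Of the other transporters of bile acids and bile lipids, 13 of 15 were tested (Slc51b was below the filter and Slc51a was not analysed here), and Abcb4 was the most abundant with 23.1% of the summed level. In model against control 1 was upregulated, Abcc4, and 1 downregulated, Abcg5, with a list median of 0.04 (-0.30 relative to all genes). Abcc4 (MRP4), an export pump to the blood, had 1.49, 1.13 and 0.852 FPKM in the control livers, 12.9, 12.7 and 10.7 FPKM in the model livers, 1.57, 1.87 and 2.33 FPKM in the silibinin livers, and 6.57, 2.38 and 2.67 FPKM in the phloridzin livers. The model livers stood above all others, and phloridzin replicate 1 was the highest of the rest. Abcg5, a subunit of the sterol exporter, had 8.78, 11.03 and 8.49 FPKM in the control livers, 3.55, 2.26 and 3.74 FPKM in the model livers, 6.86, 10.2 and 7.32 FPKM in the silibinin livers, and 11.2, 13.2 and 10.3 FPKM in the phloridzin livers. The model livers were below all others.

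Abcc4 rose in the model group by 2.61 (log2, limma adjusted p = 0.000151), and Abcg5 fell by 1.33 (limma adjusted p = 0.000712). Both were also DE in each drug group against the model group, in the other direction. With silibinin Abcg5 rose by 1.13 (limma adjusted p = 0.00419) and Abcc4 fell by 2.17 (limma adjusted p = 0.000699). With phloridzin Abcg5 rose by 1.60 (limma adjusted p = 0.000556) and Abcc4 fell by 1.52 (limma adjusted p = 0.00535), and without phloridzin replicate 1 they were at 1.62 (limma adjusted p = 0.0018) and -1.89 (limma adjusted p = 0.00018). Slco1a4 was upregulated too without that liver. The Abcg5 call with silibinin was lost on the cutoff without model replicate 2 or silibinin replicate 2. In phloridzin against silibinin 0 of the 13 were DE by limma, and 2 were higher and 0 lower at an unadjusted p under 0.05. Abcc4 was higher than control with phloridzin (1.08, limma adjusted p = 0.0377), a call that was not made after scaling by median ratios. Without phloridzin replicate 1 it was at 0.72 (limma adjusted p = 0.048), within the cutoff, and the call was lost with 9 of the 12 livers left out in turn, with an adjusted p from 0.034 to 0.11. With scaling, Abcc3, Abcg8 and Slco2b1 were downregulated in the model group beside Abcg5, and Abcc3 was upregulated with phloridzin against the model group.

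The list of other regulators of bile acid genes, which holds Nr1h4 (FXR), Nr5a2 and Hnf4a, had 14 of 15 genes tested (Gpbar1 was below the filter). In all 6 comparisons 0 were DE by limma, with 3 lower at an unadjusted p under 0.05 in model against control, 1 higher in silibinin against model, 0 in phloridzin against model, 1 lower in phloridzin against silibinin, 1 lower in silibinin against control and 2 lower in phloridzin against control, each with 0 in the other direction. Hnf4a, the most abundant with 32.0% of the summed level, had 104, 112 and 115 FPKM in the control livers, 116, 101 and 122 FPKM in the model livers, 121, 117 and 126 FPKM in the silibinin livers, and 88.7, 124 and 101 FPKM in the phloridzin livers. The silibinin livers were above the control livers, and all other pairs of groups overlapped. After scaling by median ratios 2 regulators were downregulated in model against control, Nr1i3 and Rxra.

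Of 5 detoxification enzymes, all tested, 1 was upregulated in model against control, Cyp2b10, and 1 downregulated, Sult2a8, and Cyp3a11 was the most abundant with 71.5% of the summed level. Cyp2b10 had 1.71, 3.47 and 0.666 FPKM in the control livers, 17.0, 10.2 and 38.0 FPKM in the model livers, 5.58, 17.6 and 3.94 FPKM in the silibinin livers, and 5.89, 5.47 and 6.31 FPKM in the phloridzin livers. The control livers were the lowest, and silibinin replicate 2 lay within the range of the model livers. Cyp2b10 has close paralogs too, and the division of fragments among them was not tested. Sult2a8, a sulfotransferase of bile acids, had 116, 133 and 150.5 FPKM in the control livers, 61.9, 68.7 and 60.0 FPKM in the model livers, 103, 135 and 122 FPKM in the silibinin livers, and 119.7, 81.9 and 82.1 FPKM in the phloridzin livers. The model livers were below all others. Cyp2b10 rose in the model group by 2.87 (log2, limma adjusted p = 0.00317) and Sult2a8 fell by 1.05 (limma adjusted p = 0.00164), which was within the cutoff without control replicate 3 (-0.96). In each drug group against the model group 0 of 5 were DE by limma, with 1 higher and 1 lower at an unadjusted p under 0.05. After scaling by median ratios Sult2a8 was upregulated with silibinin.

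**Figure D5:**
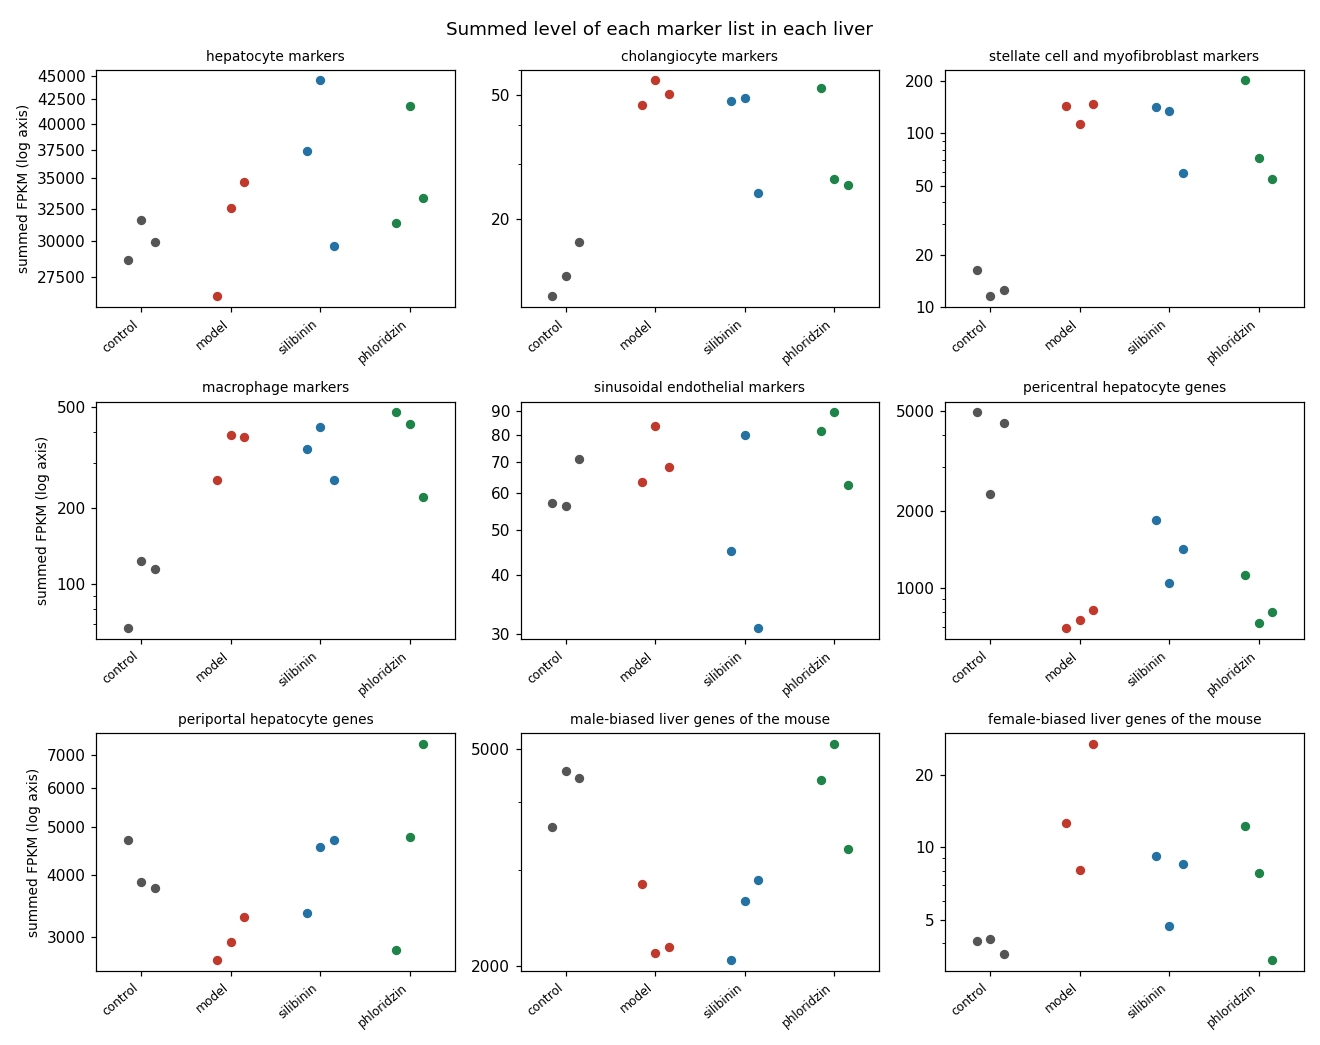
Summed FPKM of each marker list (vertical axis, log) in each liver (points) of the 4 groups (n = 3). Pericentral genes were at 2352 FPKM or more in the control livers and at 1847 FPKM or less in all CCl4 livers, and stellate cell markers were at 16.3 FPKM or less in the control livers and at 54.7 FPKM or more in the others.

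Marker lists were read beside these genes, as in the plot of the marker lists, because fewer cells of a type and less RNA per cell cannot be told apart in whole liver. No listed gene was at 0 in all 12 livers. The 10 hepatocyte markers, with Alb at 54.9% of their sum, reached 28696, 31597 and 29949 FPKM in the control livers, 26236, 32564 and 34731 in the model livers, 37422, 44476 and 29656 in the silibinin livers, and 31412, 41756 and 33398 in the phloridzin livers. The control and model livers overlapped in this sum. Without Alb the other 9 markers reached 17725, 15977 and 18440 FPKM in the control livers and 13053, 11980 and 11204 in the model livers, which were all lower. The silibinin livers, at 13616, 15120 and 16054 FPKM, were then above all model livers. The phloridzin livers, at 12516.5, 18873 and 16728 FPKM, overlapped with the model livers. Against the model group 0 of 10 were DE by limma with either drug, and without phloridzin replicate 1 Hpd was upregulated with phloridzin. In model against control 1 of 10 was DE, Hpd, which was lower (3 lower after scaling), with 0 higher and 3 lower at an unadjusted p under 0.05. The list median was -0.14 (-0.48 relative to all genes). The part of hepatocyte number in the results of the bile acid genes was not tested.

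The 8 pericentral genes, with Cyp2e1 at 69.6% of their sum, had 4923, 2352 and 4473 FPKM in the control livers, 693, 747 and 817 in the model livers, 1847, 1045 and 1421 in the silibinin livers, and 1117, 725 and 802 in the phloridzin livers. The model and phloridzin livers overlapped and lay below the silibinin livers apart from phloridzin replicate 1, and the control livers were above all. Without Cyp2e1 the other 7 genes had 218, 257 and 269 FPKM in the model livers, 293, 362 and 334 in the silibinin livers, and 637, 368 and 314 in the phloridzin livers, so that the phloridzin livers were above the model livers and overlapped with the silibinin livers. Of the 8 genes 4 were downregulated in the model group (6 after scaling), with a list median of -1.62 (-1.96 relative to all genes). At an unadjusted p under 0.05, 6 were lower in the model group and 1, Axin2, was higher (0.77 on the log2 scale). Against the model group 1 was upregulated with phloridzin (2 without phloridzin replicate 1, and 2 after scaling). With silibinin 0 were upregulated by limma (1 without phloridzin replicate 1, and 1 after scaling). In each of these drug comparisons 4 were higher and 0 lower at an unadjusted p under 0.05. The 8 periportal genes, with Cps1 at 33.7% of their sum, had 4714, 3878 and 3763 FPKM in the control livers, 2696, 2923 and 3288 in the model livers, 3351, 4563 and 4710.0 in the silibinin livers, and 2819, 4770.3 and 7363 in the phloridzin livers. The model livers were below the control and silibinin livers. Of these 8, 1 (Hal) was downregulated in the model group and upregulated with silibinin, and 0 were DE with phloridzin against the model group by limma (3 higher and 0 lower at an unadjusted p under 0.05). Without phloridzin replicate 1, 3 were upregulated with phloridzin (Ass1, Hal and Sds) and 2 with silibinin (Hal and Sds). In that fit 116 of all 13158 genes were upregulated with phloridzin and 113 with silibinin. The part of the zones in the levels of Cyp7a1, Cyp8b1 and the other bile acid genes was not tested.

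Since Cyp7b1 and Slco1a1 are higher in male than in female mice, lists of sex-biased liver genes were read as well. The 10 male-biased genes, with Mup20 at 82.9% of their sum and Hsd3b5 below the filter, had 3596, 4558 and 4413 FPKM in the control livers, 2834, 2115 and 2171 in the model livers, 2055, 2636 and 2872 in the silibinin livers, and 4386, 5097 and 3279 in the phloridzin livers. The phloridzin livers overlapped with the control livers, and the silibinin livers with the model livers, and both pairs of groups lay apart. The overlap of the phloridzin and control livers rests on Mup20. Without it the phloridzin livers, at 598, 570.3 and 511 FPKM, were below the control livers, at 654, 977 and 764 FPKM. They stayed above the silibinin livers, at 467, 466 and 509 FPKM, by little for phloridzin replicate 3. The model livers, at 397, 439 and 504 FPKM, still overlapped with the silibinin livers. Of 9 tested, 3 were downregulated in the model group (6 after scaling), 0 changed with silibinin by limma (0 at an unadjusted p under 0.05), and 1, Cyp4a12b, was upregulated with phloridzin (3 after scaling). The list median was -0.85 in model against control, 0.09 in silibinin against model and 0.92 in phloridzin against model. Relative to all genes it was -1.19, 0.24 and 1.03, in that order. In phloridzin against silibinin the list median was 0.85 (0.82 relative to all genes). There 0 of 9 were DE by limma, and 3 were higher and 0 lower at an unadjusted p under 0.05. The part of sex-biased regulation in the levels of Cyp7b1 was not tested.

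The 10 female-biased genes, of which 4 passed the filter, summed to 4.07, 4.16 and 3.60 FPKM in the control livers, 12.6, 8.05 and 26.8 in the model livers, 9.19, 4.70 and 8.52 in the silibinin livers, and 12.3, 7.81 and 3.41 in the phloridzin livers. Their control livers were the lowest apart from phloridzin replicate 3, and without Cyp2a4 they overlapped with those of each other group. Cyp2a4, with 49.5% of the sum, was upregulated in the model group and downregulated in each drug group against the model group, the silibinin call not being made after scaling. The other 3 genes tested were not DE by limma in any of these comparisons, and 0 of the 3 passed an unadjusted p under 0.05. The list median was 0.08 in model against control, 0.29 in silibinin against model and 0.05 in phloridzin against model. Relative to all genes it was -0.26, 0.44 and 0.16, in that order.

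The 7 stellate cell and myofibroblast markers, with Col3a1 at 46.6% of their sum, had 16.3, 11.5 and 12.4 FPKM in the control livers, 144, 113 and 147 in the model livers, 143, 134 and 59.3 in the silibinin livers, and 202, 71.9 and 54.7 in the phloridzin livers. Phloridzin replicate 1 had the highest sum of all livers, and the other phloridzin livers and silibinin replicate 3 had the lowest of the CCl4 livers. Of the 7, 4 were upregulated in the model group, and 0 changed in either drug group against the model group by limma (0 higher and 1 lower at an unadjusted p under 0.05 in each). The 6 macrophage markers, with Lyz2 at 69.6% of their sum, had 67.3, 124 and 115 FPKM in the control livers, 259, 389.8 and 380.0 in the model livers, 341, 418 and 258 in the silibinin livers, and 478, 429.6 and 221 in the phloridzin livers. All CCl4 livers were above the control livers, and 2 of the 6 markers were upregulated in the model group.

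The 6 cholangiocyte markers, with Spp1 at 86.8% of their sum and Krt7, Epcam and Cftr below the filter, had 11.3, 13.04 and 16.8 FPKM in the control livers, 46.3, 55.7 and 50.3 in the model livers, 48.0, 48.8 and 24.2 in the silibinin livers, and 52.7, 26.9 and 25.7 in the phloridzin livers. All CCl4 livers were above the control livers, and Spp1 was upregulated in the model group. The 6 sinusoidal endothelial markers, with Clec4g at 41.8% of their sum, had 57.2, 56.4 and 71.0 FPKM in the control livers, 63.3, 83.5 and 68.3 in the model livers, 45.2, 79.8 and 30.9 in the silibinin livers, and 81.3, 89.4 and 62.5 in the phloridzin livers. Here the control and model livers overlapped, although without Clec4g the model livers were above the control livers, and 0 of 6 were DE by limma in model against control, with 1 higher and 0 lower at an unadjusted p under 0.05, where 40.2% of all genes were higher. In the livers with the lowest stellate sums among the CCl4 livers, phloridzin replicates 2 and 3 and silibinin replicate 3, Cyp7a1 was at 105 FPKM or more, and it was at 43.3 FPKM or less in the other 9 livers. That pattern was noticed after the values were seen, and it was not tested.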

How the data were processed

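The authors deposited FPKM values per transcript for 12 livers, after HISAT2 2.1.0 and StringTie 1.3.3b on mm10 according to the submitters' processing notes, which also name bcl2fastq, FastQC 0.11.5 and DESeq 1.28.0. The unit was checked on the values, which gave between 83.7 and 110.9 M fragments per library, so that levels near the filter are the least precise. Of 169430 transcripts, 82136 carried a symbol and were summed to 24296 genes, and the 23 transcripts of the 10 genes all lie inside the gene of that name in GENCODE (GRCm38). Genes with a mean of at least 0.5 FPKM (13158) were tested by limma 3.58.1 in R 4.3.3 with data.table (1.17.8), on log2(FPKM + 1) in a fit of 12 livers with 6 comparisons, two-sided, with Benjamini-Hochberg adjustment. The procedure was tested on simulated data, whose outcome is not reported here. With 3 livers against 3 an exact permutation test cannot go below p = 0.1, so none was used. The p-values measure only the spread between these livers, and a library stands for 1 liver.

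The members and lists were chosen with earlier results of these data known. Named genes are the 10 members, the DE genes of each pathway list or, if none, its most abundant, the most abundant gene of each marker list, and the 3 genes most like each member. Other genes named with a count were chosen after their values were seen. The list symbol Tf was read as Trf. Alternatives for the 10 genes were pseudocounts of 0.1 and 0.01, no filter, a filter of 5 FPKM, scaling by median ratios, the compared groups alone, the replicate number as a block, the most abundant transcript, no cutoff on fold change, voom on recovered fragments and each liver left out. The lists were read again under scaling and without phloridzin replicate 1, and the DE genes of the pathway lists with each liver left out. List sums were also read without the most abundant gene. Transcripts without a symbol were not used here. Python 3.11.15 with numpy 2.4.6, pandas 2.3.3 and matplotlib 3.10.9 made the tables and figures.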

Additional observations from a re-analysis of the deposited data

How the results depend on the processing

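The 60 log2 fold changes of the 10 genes in 6 comparisons were computed under 22 alternatives, 1320 values in all. The test with no cutoff on fold change leaves these values as they are, so its calls are counted apart below. Of these 1273 kept their direction and side of the threshold, 10 calls were lost (8 by leaving out 1 liver), 4 were gained, and 33 changed sign, none of them called. Cyp8b1 stayed called under every alternative in model against control (-3.45 to -2.63), silibinin against model (1.86 to 2.53) and phloridzin against model (1.94 to 2.61), and so did Cyp7b1 in model against control (-3.14 to -2.14).

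The number of the 10 genes called in model against control went from 2 to 5 with scaling by median ratios and to 5 with no fold change cutoff. In silibinin against model it went from 1 to 2 with no fold change cutoff. In phloridzin against model it went from 2 to 3 with scaling by median ratios (Cyp7b1 added). It went to 1 with no filter and to 1 with only the compared groups. With each liver left out it was between 1 and 2. In silibinin against control it was between 0 and 1 with each liver left out. It was 0 in phloridzin against silibinin and in phloridzin against control under all alternatives. With the replicate block (paired by replicate number) the numbers were 2, 1, 2, 0, 1 and 0, as without it. The labels do not say that the numbers pair the livers. Deviations from the group mean correlated at a median r of 0.0039 between livers of the same number and -0.00595 between others, across genes. These medians cannot exclude a pairing. Summing protein-coding transcripts only, an alternative chosen after seeing the data, changed no number.

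Over all genes the numbers called depend more on the processing. In model against control 1240 were upregulated and 142 downregulated, against 2376 and 220 with a pseudocount of 0.1, 2489 and 222 with 0.01, 2333 and 222 with voom, and 531 and 454 with scaling. In silibinin against model 98 and 428 went to 158 and 606 with a pseudocount of 0.1, 171 and 613 with 0.01, 129 and 790.0 with voom and 189 and 242 with scaling. In phloridzin against model 79 and 384 went to 128 and 574, 136 and 565, 111 and 699, and 140 and 244 in that order, and to 38 and 312 with the compared groups alone. In silibinin against control 229 and 32 went to 782 and 46, 855 and 42, 522 and 48, and 152 and 53, and to 94 and 23 with the top transcript. In phloridzin against control 360 and 38 went to 1054 and 49, 1137 and 45, 672 and 48, and 189 and 62, to 122 and 21 with the compared groups alone and to 166 and 24 with the top transcript. The filter at a mean FPKM of 5, which tests 6059 genes, gave 547 and 104 in model against control, 85 and 253 in silibinin against model, 68 and 221 in phloridzin against model, 91 and 18 in silibinin against control and 135 and 22 in phloridzin against control.

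Signs changed outside the leave-one-out fits for Cyp27a1 in silibinin against model (0.14 with scaling, from -0.07), and for Slc10a1 in phloridzin against silibinin (0.31 with the top transcript, from -0.13), in silibinin against control (-0.19 with scaling, -0.04 with the top transcript and -0.01 with voom, from 0.04) and in phloridzin against control (0.27 with the top transcript, from -0.09). Slco1a1 in phloridzin against control was 0.14 with the top transcript, from -0.34. The cause was not tested.

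With each liver left out in turn, signs changed for these small differences. In model against control Abcb11 ranged from -0.26 to 0.07. In silibinin against model the ranges were -0.33 to 0.56 for Cyp7b1, -0.22 to 0.03 for Cyp27a1 and -0.39 to 1.07 for Slco1a1. In phloridzin against model they were -0.07 to 1.40 for Slco1a1 and -0.02 to 0.71 for Nr0b2. In phloridzin against silibinin they were -0.03 to 0.26 for Cyp8b1, -0.03 to 0.25 for Baat, -0.22 to 0.92 for Slco1a1 and -0.27 to 0.47 for Nr0b2. In silibinin against control they were -0.28 to 0.12 for Baat and -0.09 to 0.20 for Slc10a1. In phloridzin against control they were -0.22 to 0.19 for Baat and -1.13 to 0.25 for Slco1a1. The cause was not tested.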
